A study of Homo sapiens with 8 samples.

Results

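Metallothioneins are very small, cysteine-rich proteins that bind zinc and copper, buffer the free zinc of the cell and take up toxic metals such as cadmium. Their genes lie side by side in a cluster and are switched on through metal response elements in their promoters by MTF1, a zinc-sensing transcription factor. In brain, astrocytes are known for high levels of the MT1 and MT2 forms, whereas MT3 is a form found mainly in the nervous system. The family set examined here was chosen by name, with 10 genes: MT1A, MT1B, MT1E, MT1F, MT1G, MT1H, MT1M, MT1X, MT2A and MT3. Probe sets annotated with their symbols were found for 9 of the 10, out of 22458 genes with a named probe set, and MT1A was not analysed here.

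The RNA came from NCH644, an established line of stem-like glioblastoma cells kept in neurosphere culture, and was read on single-colour arrays. The groups were OTX015 at 5 µM together with panobinostat at 5 µM, panobinostat at 5 µM, OTX015 at 5 µM, and DMSO as the vehicle, all for 24 h, with 2 arrays in each group and 8 arrays in all. OTX015 inhibits the BET bromodomain proteins that bind acetylated histones, and panobinostat inhibits histone deacetylases (HDACs). The submitters describe the arrays as biological duplicates of 1 cell line and do not say how the duplicates were separated, so the p-values measure the spread between these arrays, which may be partly technical, and so few arrays limit how precise any value can be. Of 9 genes listed for the glioblastoma stem-like state 8 were measured, and all 8 lay above background in every group. Their levels changed with treatment (limma, adjusted p under 0.05, against DMSO). With panobinostat 1 was higher and 6 lower, with both drugs 1 and 7, and with OTX015 4 and 3. The shares of all genes were 19.4% and 17.9%, 19.2% and 18.4%, and 7.97% and 8.49%. SOX2 averaged 10.1 with DMSO, 10.64 with OTX015, 7.98 with panobinostat and 6.81 with both drugs. Duplicates correlated across genes at r between 0.9903 and 0.993, and array medians ran from 3.87 to 4.

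Levels below are log2 values of the authors' RMA normalization, and changes are log2 differences ± standard error (SE), fitted with limma on n = 2 arrays a group. A gene was called at an adjusted p under 0.05. A background level of 3.03 was set where 95% of the group means of 354 genes for olfactory receptors lay below, genes that these cells are not thought to use. A level on such an array cannot be set against that of another gene, because each probe set has its own sensitivity. The MT1 genes are close copies of each other, the sequences of the array's probes were not used here, and a probe set of 1 copy may therefore also take up RNA of another.

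The promoters are shown because the metal response element is the best known control sequence of these genes. RefSeq promoters (GRCh38.p14) were found for 4 of the 9 measured members: MT2A and MT1X, which rose with panobinostat, and MT1B and MT1H, which were under background in every group. The 250 bases before each gene's start are shown 5′ to 3′ on the plus strand of chromosome 16, with every copy of the metal response element core, searched as TGCACNC or TGCGCNC on both strands, in capitals. MT2A lies at chr16:56608334-56608583, MT1X at chr16:56682220-56682469, MT1B at chr16:56651636-56651885 and MT1H at chr16:56669564-56669813.
MT2A: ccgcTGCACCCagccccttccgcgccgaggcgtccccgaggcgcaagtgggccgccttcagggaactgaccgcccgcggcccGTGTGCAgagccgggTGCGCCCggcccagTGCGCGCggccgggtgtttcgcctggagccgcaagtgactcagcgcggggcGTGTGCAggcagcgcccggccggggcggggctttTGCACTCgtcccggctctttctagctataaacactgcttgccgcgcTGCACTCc
MT1X: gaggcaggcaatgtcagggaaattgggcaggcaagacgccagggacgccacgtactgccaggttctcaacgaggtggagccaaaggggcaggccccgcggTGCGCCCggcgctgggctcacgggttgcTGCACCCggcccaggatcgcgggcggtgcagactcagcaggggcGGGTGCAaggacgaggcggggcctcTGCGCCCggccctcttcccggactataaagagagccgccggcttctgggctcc
MT1B: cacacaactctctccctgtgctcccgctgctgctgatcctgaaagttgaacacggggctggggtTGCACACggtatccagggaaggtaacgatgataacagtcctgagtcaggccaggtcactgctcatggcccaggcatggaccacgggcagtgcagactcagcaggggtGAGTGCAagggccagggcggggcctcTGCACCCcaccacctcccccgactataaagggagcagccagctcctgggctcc
MT1H: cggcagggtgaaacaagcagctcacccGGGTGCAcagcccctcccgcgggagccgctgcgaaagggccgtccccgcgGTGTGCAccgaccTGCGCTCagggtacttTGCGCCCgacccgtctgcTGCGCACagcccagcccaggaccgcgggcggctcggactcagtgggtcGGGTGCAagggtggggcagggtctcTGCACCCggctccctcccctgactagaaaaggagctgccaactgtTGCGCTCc
Over the whole window of 300 bases, which runs to 50 bases after the start, MT2A and MT1H held 8 copies of the core each, MT1X held 4 and MT1B held 3. At least 1 copy stood in 29.6% of all 35116 promoters of that length, and 4 or more stood in 0.601% of them. MT1H, which was not above background in any group, thus had as many copies as MT2A. The antioxidant response element core (TGACNNNGC) was found once each in MT2A, MT1X and MT1B, and in 13.3% of all promoters. The GC box (GGGCGG) was found in all 4 and in 45% of all promoters. A match is a stretch of letters and does not show that a factor binds there.

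Panobinostat alone was compared with DMSO to see what HDAC inhibition did to the family. MT2A, the most widely expressed human metallothionein, had log2 levels of 9.27 and 8.84 with panobinostat, against 4.06 and 4.27 with DMSO. It rose 29.5-fold (4.88 ± 0.18, adjusted p = 1.47e-06), the rank of 13 from the top among the 22458 genes. MT1X, a metal-inducible MT1 form, had levels of 11.75 and 11.72 with panobinostat, against 8.36 and 8.17 with DMSO. It rose 11.1-fold (3.47 ± 0.14, adjusted p = 1.6e-06). MT1F, another inducible MT1 form, had levels of 6.67 and 6.7 with panobinostat, against 4.84 and 4.05 with DMSO, a rise of 4.72-fold (2.24 ± 0.31, adjusted p = 0.000567). In all 3 genes both panobinostat arrays lay far above both DMSO arrays. The MT1X values with panobinostat were close to the highest value on any array, which ranged from 12.04 to 12.33, a region in which array signals can be compressed, so that a fold of MT1X against groups without panobinostat may be understated. In bulk RNA a change in the number of cells that express a gene and a change in the RNA per cell cannot be told apart.

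None of the other members was called higher. MT3, the nervous system form, had levels of 4.07 and 3.49 with panobinostat, against 3.46 and 3.63 with DMSO, so the groups overlapped. Its change of 0.23 ± 0.20 did not pass (adjusted p = 0.422), the 95% interval ran from -0.23 to 0.7, and without panobinostat replicate 1 the change was -0.05. MT1E had levels of 3.61 and 3.25 with panobinostat, against 2.68 and 3.03 with DMSO, so both panobinostat arrays lay above both DMSO arrays. Its change of 0.57 ± 0.22 did not pass (adjusted p = 0.0761), but the 95% interval ran from 0.07 to 1.08. MT1B, MT1G, MT1H and MT1M averaged under background in all 4 groups, between 0.87 and 2.28. The test called a lower value for MT1M (-0.59 ± 0.14, adjusted p = 0.00878), whose levels were 1.3 and 1.29 with panobinostat, against 1.91 and 1.85 with DMSO. Because both groups lay under background, no fold is given. In all, 3 of 9 members were called higher and 1 lower with panobinostat, where 19.4% of all genes were called higher and 17.9% lower. The median change of the 9 was 0.23 and that of all genes -0.05.

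**Figure D1:**
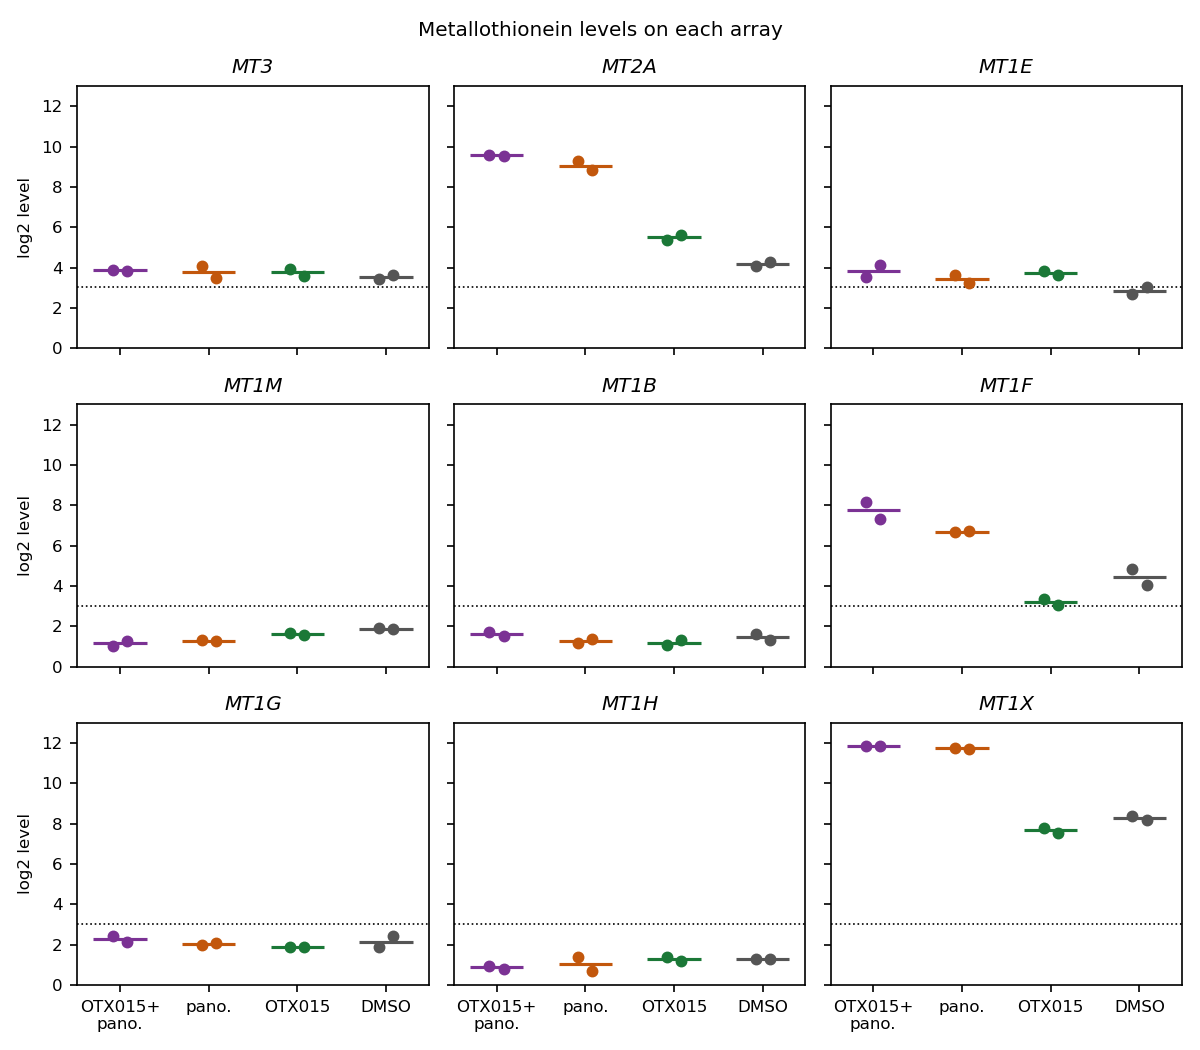
Log2 level (vertical axis) of the 9 measured metallothioneins on each of the 8 arrays, by treatment, with points for arrays, a bar for each group mean and a dotted line at the background level of 3.03; "pano." is panobinostat. MT2A, MT1F and MT1X stand apart in the groups that received panobinostat, and MT1B, MT1G, MT1H and MT1M lie under the line throughout.

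The BET inhibitor alone moved members in opposite directions. MT2A had levels of 5.38 and 5.62 with OTX015, against 4.06 and 4.27 with DMSO, and rose 2.51-fold (1.33 ± 0.18, adjusted p = 0.00183). MT1E had levels of 3.83 and 3.65 with OTX015, against 2.68 and 3.03 with DMSO. It rose by 0.88 ± 0.22 (adjusted p = 0.0288), at least 1.64-fold because the DMSO mean of 2.86 was under background. MT1F had levels of 3.36 and 3.07 with OTX015, against 4.84 and 4.05 with DMSO, and fell 2.35-fold (-1.23 ± 0.31, adjusted p = 0.0298). Its OTX015 mean of 3.22 was barely above the background level of 3.03, so the size of the fall is uncertain. MT1X had levels of 7.78 and 7.55 with OTX015, against 8.36 and 8.17 with DMSO, and fell 1.52-fold (-0.6 ± 0.14, adjusted p = 0.0184). For each of these 4 genes the OTX015 and DMSO arrays did not overlap.

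The rise of MT2A kept its call when any 1 of the 4 arrays was left out (adjusted p from 0.00884 to 0.0206). The other 3 calls were lost in some of the fits that left out 1 array. Such a fit keeps 1 array in a group and has less power, so a loss does not show that 1 array made the call. MT1E lost it without DMSO replicate 1 (adjusted p = 0.141), OTX015 replicate 1 (adjusted p = 0.153) or OTX015 replicate 2 (adjusted p = 0.0901). MT1F lost it without the same arrays (adjusted p = 0.149, 0.0873 and 0.163), and its fall was by 0.84 in place of 1.23 without DMSO replicate 1. MT1X lost it without DMSO replicate 1 (adjusted p = 0.092) or OTX015 replicate 2 (adjusted p = 0.12). The direction of all 4 stayed the same. MT3 changed by 0.21 ± 0.20 with OTX015 (adjusted p = 0.566, 95% interval -0.25 to 0.68). Of the 9 members, 2 were called higher and 2 lower with OTX015, where 7.97% of all genes were called higher and 8.49% lower, and the median change was -0.25 for members and -0.02 for all genes.

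Both drugs together were compared with the same 2 DMSO arrays that the comparisons above use. MT2A had levels of 9.6 and 9.52 with both drugs, against 4.06 and 4.27 with DMSO, and rose 41.9-fold (5.39 ± 0.18, adjusted p = 7.06e-07). MT1X had levels of 11.86 and 11.85, against 8.36 and 8.17 with DMSO, and rose 12-fold (3.59 ± 0.14, adjusted p = 8.5e-07). MT1F had levels of 8.17 and 7.32, against 4.84 and 4.05 with DMSO, and rose 9.81-fold (3.29 ± 0.31, adjusted p = 5.95e-05). In each of these genes every array with both drugs lay above every DMSO array. MT1E, with levels of 3.55 and 4.12, against 2.68 and 3.03 with DMSO, rose by 0.98 ± 0.22 (adjusted p = 0.00796), at least 1.75-fold. That call was lost without DMSO replicate 1 (adjusted p = 0.0552) or without replicate 2 of both drugs (adjusted p = 0.0533). MT3 changed by 0.32 ± 0.20 (adjusted p = 0.275), and MT1M, under background in both groups, was called lower (-0.73 ± 0.14, adjusted p = 0.00275). Thus 4 of 9 members were called higher and 1 lower, where 19.2% of all genes were called higher and 18.4% lower, with a median of 0.32 for members and 0.01 for all genes.

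**Figure D2:**
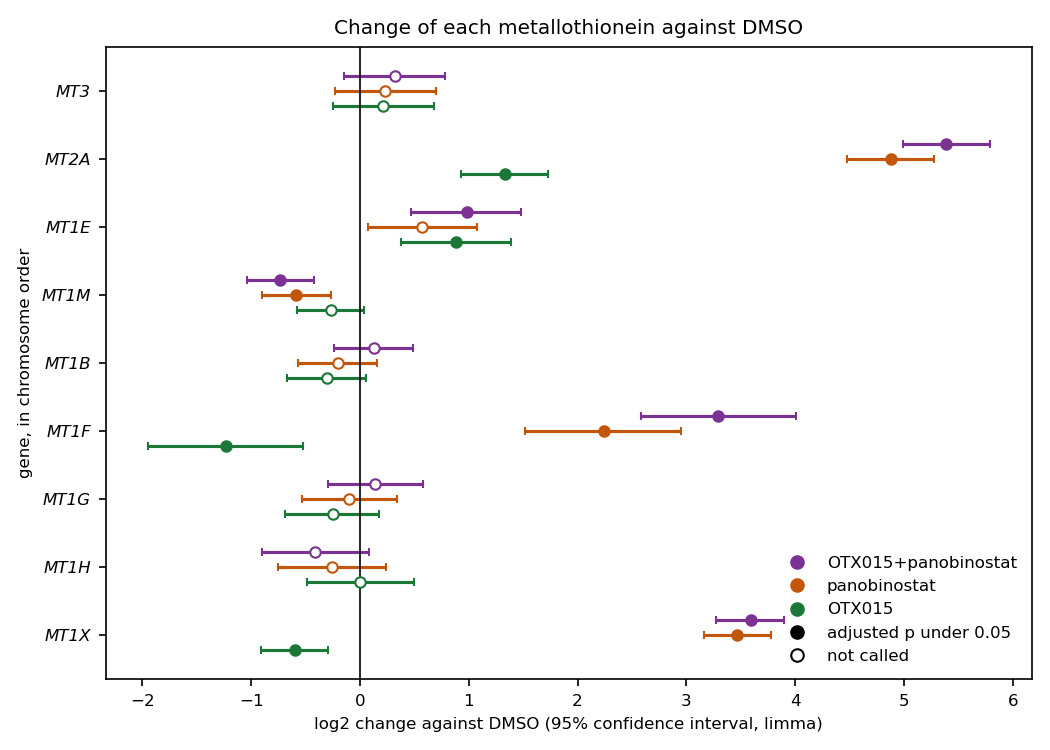
Log2 change against DMSO (horizontal axis, with 95% confidence intervals from limma) of each measured metallothionein, listed from top to bottom in chromosome order, for both drugs, panobinostat and OTX015; filled points were called at adjusted p under 0.05. MT2A, MT1F and MT1X rise with panobinostat by 4.88, 2.24 and 3.47. MT1M and MT1B, which lie between MT2A and MT1F, do not, but both averaged under background in every group.

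Adding panobinostat to OTX015 raised the same 3 named genes. MT1F rose 23-fold with both drugs against OTX015 (4.53 ± 0.31, adjusted p = 1.94e-05), MT1X 18.2-fold (4.19 ± 0.14, adjusted p = 1.35e-06) and MT2A 16.7-fold (4.06 ± 0.18, adjusted p = 2.54e-06). The fold of MT1F is uncertain in size, since its OTX015 mean of 3.22 was barely above background. MT1E changed by 0.09 ± 0.22 (adjusted p = 0.82) and MT3 by 0.11 ± 0.20 (adjusted p = 0.768), and both took either sign over the alternatives. The call of a lower MT1M (-0.46 ± 0.14, adjusted p = 0.0322) was again between levels under background. It was lost in 3 of the 4 fits that left out 1 array, with adjusted p = 0.154 without OTX015 replicate 1, 0.0733 without OTX015 replicate 2 and 0.189 without replicate 1 of both drugs. In this comparison 3 of 9 members were called higher and 1 lower, where 15.3% of all genes were called higher and 14.7% lower.

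Adding OTX015 to panobinostat gave 0 calls among the 9 members in limma, with 2 of 9 at an unadjusted p under 0.05, where 10.4% of all genes were called in either direction. MT1F averaged 7.74 ± 0.6 with both drugs and 6.69 ± 0.02 with panobinostat (SD, n = 2 each), a difference of 1.06 ± 0.31 (adjusted p = 0.0697, 95% interval 0.34 to 1.77). Its arrays did not overlap, and without replicate 2 of both drugs the difference was 1.48 and was called (adjusted p = 0.04). MT2A differed by 0.51 ± 0.18 (adjusted p = 0.107, 95% interval 0.11 to 0.91) and MT1X by 0.12 ± 0.14 (adjusted p = 0.648, 95% interval -0.19 to 0.43). The MT1X difference was -0.16 after quantile normalization, and its levels in both groups lay near the array maxima, where a further rise may not be seen.

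Set directly against each other, the drugs gave lower levels with OTX015 than with panobinostat in 3 of 9 members, where 16% of all genes were called lower. MT2A was lower 11.7-fold (-3.55 ± 0.18, adjusted p = 7.47e-06), MT1F 11.1-fold (-3.47 ± 0.31, adjusted p = 9.36e-05) and MT1X 16.8-fold (-4.07 ± 0.14, adjusted p = 1.73e-06). For MT1X the fold may be understated, since its panobinostat levels of 11.75 and 11.72 were near the array maxima. For MT1F the fold is uncertain in size, since its OTX015 mean of 3.22 was barely above background. The levels of MT1F and MT1X were thus lowest with OTX015, then higher with DMSO, panobinostat and both drugs, and those of MT2A were lowest with DMSO, then OTX015, panobinostat and both drugs. In all 3 orders the last step, from panobinostat to both drugs, was not called in the main fit, and for MT1X its sign turned with quantile normalization. For MT3 no step was called in any comparison.

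Whether OTX015 did something else in the presence of panobinostat was tested with the interaction, the change with OTX015 under panobinostat minus the change with OTX015 alone. With OTX015 alone MT1F averaged 3.22, barely above background, which limits how well its change there is measured. MT1F had an interaction of 2.29 ± 0.44 (adjusted p = 0.0123): the difference with OTX015 was 1.06 under panobinostat, against -1.23 alone. Without OTX015 replicate 2 it lost the call (adjusted p = 0.0551). MT1X had an interaction of 0.72 ± 0.19 (adjusted p = 0.0411), with differences of 0.12 under panobinostat and -0.6 alone. The MT1X levels behind the 0.12 were 11.72 to 11.86, near the array maxima of 12.04 to 12.33, and compression there would by itself bring that difference towards 0 and the interaction above 0, so a change in the effect of OTX015 and the limit of the measure cannot be told apart. That call was lost in each of the 8 fits that left out 1 array (adjusted p from 0.0523 to 0.132), and after quantile normalization its value was 0.48 (adjusted p = 0.129). MT2A went the other way without passing in the main fit (-0.82 ± 0.25, adjusted p = 0.0651). It stayed uncalled in 13 of 16 alternatives, with values from -1.03 to -0.6, and the lowest adjusted p among the alternatives was 0.0196 (limma). Whether OTX015 raised MT2A less under panobinostat is thus not settled by these arrays. Of the 9 members, 2 were called with a positive interaction, where 6.32% of all genes were.

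**Figure D3:**
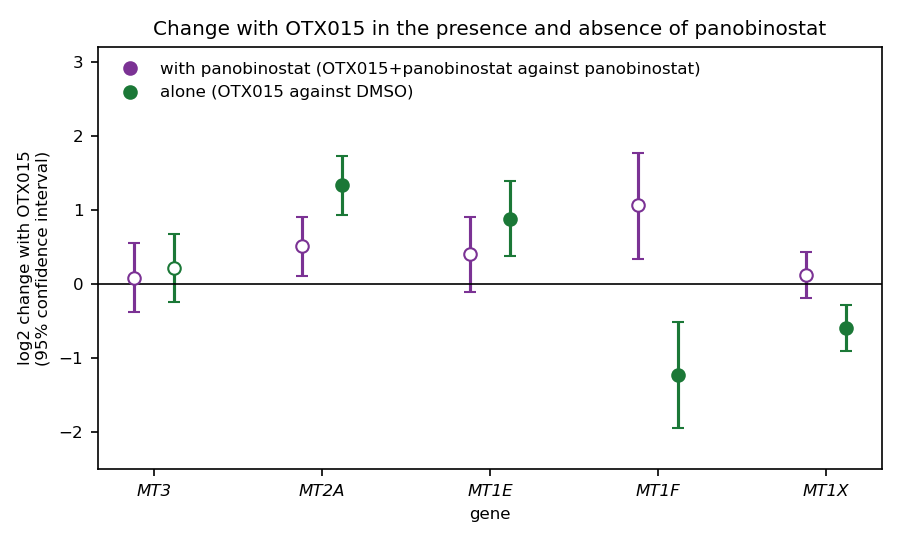
Log2 change with OTX015 (vertical axis, with 95% confidence intervals) of the 5 metallothioneins above background in at least 1 group, in the presence of panobinostat (left of each pair) and alone (right); filled points were called. MT1F lies at 1.06 with panobinostat and at -1.23 without it, and MT2A at 0.51 and 1.33.

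In their order along chromosome 16 the genes run MT4, MT3, MT2A, MT1L, MT1E, MT1M, MT1JP, MT1A, MT1DP, MT1CP, MT1B, MT1F, MT1G, MT1H, MT1IP and MT1X. The 3 genes that rose with panobinostat are therefore not next to each other, and MT1E, MT1M and MT1B lie between MT2A and MT1F. MT1M and MT1B averaged under background in every group, as did MT1G and MT1H between MT1F and MT1X, and MT1A was not analysed. MT1E changed by 0.57 ± 0.22 with panobinostat without a call. The order thus does not show that the genes in between stayed unchanged. Of 11 other family members and pseudogenes listed, 5 were measured, and with panobinostat limma called 0 of them, with 2 at an unadjusted p under 0.05. Of all genes 37.2% were called in either direction with panobinostat. MT1DP, a transcribed pseudogene, was called higher with OTX015 (adjusted p = 0.0368), with a mean of 3.25 against 2.5 with DMSO. Since the DMSO mean was under background and that with OTX015 barely above it, the rise is given only as at least 1.16-fold. MT4, a form known from squamous epithelium, averaged 4.71 with panobinostat and 4.62 with DMSO, a change of 0.09 ± 0.14 (adjusted p = 0.658). Whether a level above the background line, as here or for MT3, MT1E and MT1DP, reads expression of the gene was not tested. Beyond the block, the 10 nearest measured protein-coding genes on each side were examined. With panobinostat the median change of these 20 was -0.07. Of them 1 was called higher and 3 lower, where 19.4% of all genes were called higher and 17.9% lower. The called genes were HERPUD1 (0.81 ± 0.17), a gene of endoplasmic reticulum quality control, ARL2BP (-1.06 ± 0.12), CPNE2 (-2.1 ± 0.13) and the myelin protein gene PLLP (-2.31 ± 0.15), all on the MT1X side. With OTX015 0 of the 20 were called higher and 1 lower, with a median of -0.03. In that comparison 7.97% of all genes were called higher and 8.49% lower. With both drugs against DMSO 5 were called higher and 5 lower, where 19.2% of all genes were called higher and 18.4% lower. The median was -0.13. Called were the same 4 and, on both sides of the block, CES1 (0.6 ± 0.17), LPCAT2, BBS2 (0.48 ± 0.13) and NUP93 (0.43 ± 0.13) higher and NUDT21 (-0.76 ± 0.15) and PSME3IP1 (-0.43 ± 0.13) lower. LPCAT2 averaged under background in both groups.

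Among regulators of the family, MTF1 itself had log2 levels of 8.86 and 8.71 with panobinostat, against 7.54 and 7.5 with DMSO, and rose by 1.26 ± 0.12 (adjusted p = 8.07e-05). With OTX015 it changed by 0.19 ± 0.12 (adjusted p = 0.366). MTF1 rose by 0.5 more with both drugs against panobinostat (adjusted p = 0.0393). In the list of 10 regulators 2 were called higher and 7 lower with both drugs against DMSO, 2 higher and 6 lower with panobinostat, and 1 higher and 1 lower with OTX015. Of all genes 19.2% were called higher and 18.4% lower with both drugs, 19.4% and 17.9% with panobinostat, and 7.97% and 8.49% with OTX015. With panobinostat the transcription factor STAT3 rose (1.43 ± 0.12), while KEAP1, which holds NRF2 in check (-1.82 ± 0.16), USF2 (-1.61 ± 0.19), an E-box factor, and the insulator protein gene CTCF (-1.36 ± 0.12) fell. NFE2L2, which encodes NRF2, changed by -0.2 ± 0.17 (adjusted p = 0.413), and NR3C1, the glucocorticoid receptor gene, fell (-0.42 ± 0.13, adjusted p = 0.0313). With OTX015 STAT3 rose (0.72 ± 0.12) and USF2 fell (-1.04 ± 0.19).

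Zinc transporters form the rest of the zinc-handling system. Of 10 exporters of the SLC30 family 6 were called higher and 1 lower with panobinostat, with a median change of 0.54, 6 higher and 1 lower with both drugs against DMSO, and 2 higher and 1 lower with OTX015. For these and the importers below, 19.4% of all genes were called higher and 17.9% lower with panobinostat. With both drugs the shares of all genes were 19.2% and 18.4%, and with OTX015 7.97% and 8.49%. SLC30A1, the plasma membrane zinc exporter and a known MTF1 target, had levels of 6.94 and 7.18 with panobinostat, against 6.44 and 6.2 with DMSO, and rose by 0.74 ± 0.14 (adjusted p = 0.00351). With OTX015 it changed by 0.11 ± 0.14 (adjusted p = 0.678). SLC30A3, which loads zinc into synaptic vesicles (1.63 ± 0.14), and SLC30A4 (0.72 ± 0.20) also rose with panobinostat, and SLC30A10, not above background in any group, was called lower (-1.21 ± 0.14). Of 14 importers of the SLC39 family 4 were called higher and 1 lower with panobinostat, with a median of 0. SLC39A10, a plasma membrane importer that MTF1 is known to repress, fell by 0.62 ± 0.14 with panobinostat (adjusted p = 0.00777). SLC39A3 (1.05 ± 0.13), SLC39A9 (0.95 ± 0.13) and SLC39A11 (0.64 ± 0.12) rose, and SLC39A2 rose by at least 1.06-fold, from a DMSO mean under background. With both drugs against DMSO the importers had 2 called higher and 4 lower, with a median of -0.03. With OTX015 limma called 0 of the 14 importers, with 3 at an unadjusted p under 0.05.

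Copper is the other metal that metallothioneins bind in healthy cells. Of 12 copper genes 5 were called higher and 1 lower with panobinostat, with a median of 0.17, 5 higher and 1 lower with both drugs against DMSO, and 3 higher and 1 lower with OTX015. For these and the iron genes below, 19.4% of all genes were called higher and 17.9% lower with panobinostat. With both drugs the shares of all genes were 19.2% and 18.4%, and with OTX015 7.97% and 8.49%. ATP7A, a copper-exporting ATPase, had levels of 7.91 and 7.83 with panobinostat, against 5.39 and 5.18 with DMSO, and rose by 2.59 ± 0.13 (adjusted p = 3.56e-06). The related ATP7B (1.57 ± 0.12) and the copper chaperone genes CCS (1.08 ± 0.17) and ATOX1 (1.06 ± 0.17) rose too. With OTX015 ATP7B (0.69 ± 0.12), ATOX1 (0.65 ± 0.17) and CCS (0.61 ± 0.17) rose and COMMD1 fell (-0.71 ± 0.15). Of 8 measured iron genes 4 were called higher and 1 lower with panobinostat, among them HMOX1, the stress-induced haem oxygenase (2.38 ± 0.21), the iron regulatory protein gene ACO1 (1.58 ± 0.14) and the transferrin receptor gene TFRC (1.47 ± 0.15). The iron exporter SLC40A1 rose by at least 2.55-fold from a DMSO mean under background. With both drugs against DMSO 5 of the 8 were called higher and 1 lower. With OTX015 4 were called higher and 2 lower, and the ferrireductase gene STEAP3 fell by 1.55 ± 0.13.

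**Figure D4:**
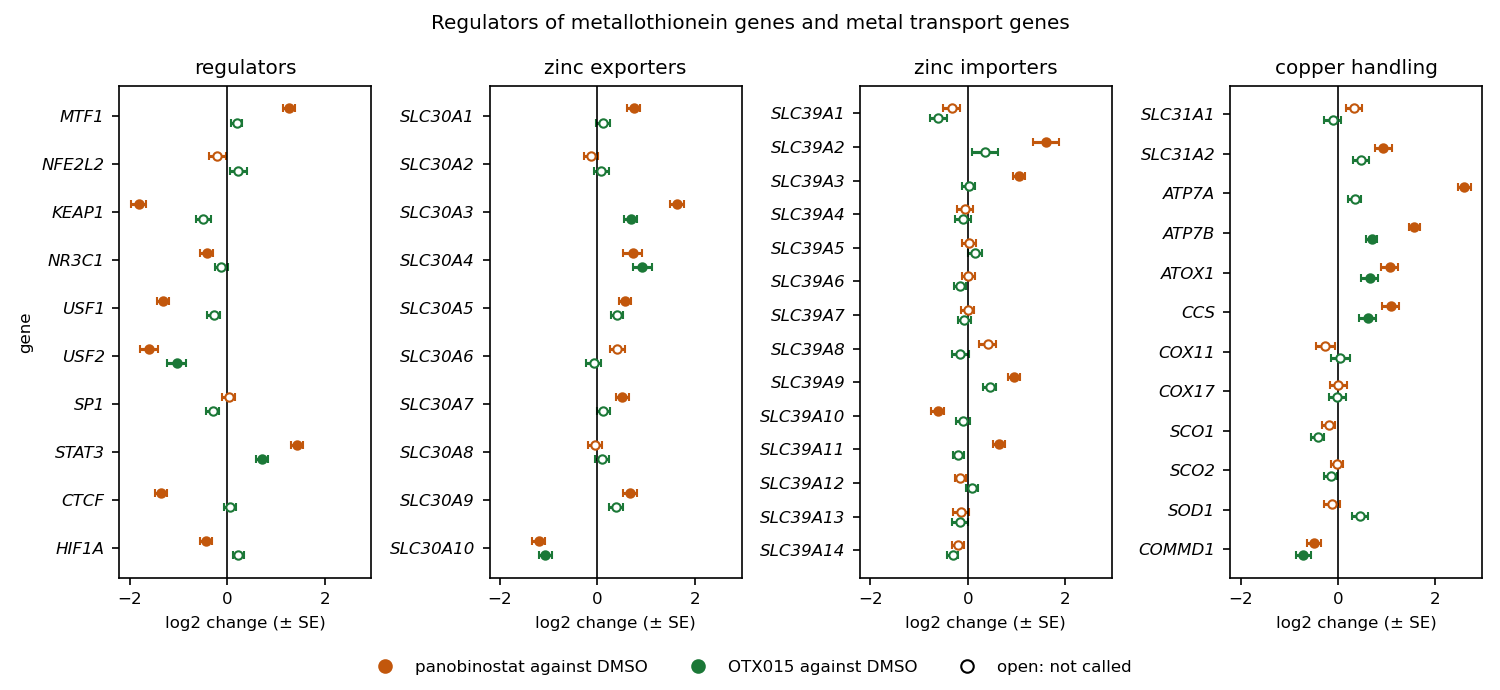
Log2 change ± SE (horizontal axis) against DMSO, with panobinostat and with OTX015, of each measured gene in the lists of regulators of metallothionein transcription, zinc exporters, zinc importers and copper handling; filled points were called. ATP7A (2.59), SLC30A3 (1.63), STAT3 (1.43) and MTF1 (1.26) rise with panobinostat, and most zinc importers lie near 0.

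Metallothioneins need cysteine, and the genes of cysteine and glutathione supply were examined for that reason. Of 8 such genes 4 were called higher and 2 lower with panobinostat, and 5 higher and 1 lower with OTX015. GCLC, the catalytic subunit of the first enzyme of glutathione synthesis, rose with panobinostat (1.85 ± 0.14) and so did its partner GCLM (0.97 ± 0.22) and the cysteine-producing enzyme CTH (1.1 ± 0.14), whereas CBS, the enzyme before CTH, fell (-2.04 ± 0.13). With OTX015 GCLM (1.11 ± 0.22), CTH (1.06 ± 0.14) and the glutathione reductase gene GSR (1.0 ± 0.14) rose and CBS fell (-1.07 ± 0.13). With both drugs against DMSO the counts leaned the other way, with 2 called higher, 4 lower and a median of -0.44, against medians of 0.14 with panobinostat and 0.93 with OTX015. GCLC (2.1 ± 0.14) and CTH (1.11 ± 0.14) still rose, CBS (-2.18 ± 0.13), the cystine transporter gene SLC7A11 (-1.28 ± 0.17), the glutathione synthetase gene GSS (-0.84 ± 0.13) and GSR (-0.77 ± 0.14) fell, and GCLM changed by 0.34 ± 0.22 (adjusted p = 0.289). The interaction was called negative in 6 of the 8, led by GSR (-2.18 ± 0.20, adjusted p = 0.00104), and positive in CBS, with a median of -0.89, where 7.42% of all genes were called negative. Glucocorticoids are another known inducer of MT2A. Of 8 glucocorticoid-responsive genes 5 were called higher with panobinostat, led by DUSP1 (3.39 ± 0.13), ERRFI1 (2.57 ± 0.12), PER1 (1.93 ± 0.22) and FKBP5 (1.32 ± 0.15), 5 higher and 1 lower with both drugs against DMSO, and 3 higher and 1 lower with OTX015. The rest of the list did not average higher with panobinostat. SGK1 averaged 5.46 against 5.61 with DMSO, TSC22D3 2.89 against 3.06, and ZBTB16, under background, 2.65 against 2.65. A part of glucocorticoid signalling in the MT2A change was not tested. The background for the counts in these lists is that of the comparisons above, 37.2% of all genes called in either direction with panobinostat and 16.5% with OTX015. With both drugs against DMSO 19.2% of all genes were called higher and 18.4% lower.

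The genes most like MT2A over the 8 arrays, by Euclidean distance after the DMSO mean of each gene was subtracted, were ZCCHC12 at a distance of 1.09, CRISPLD2 at 1.32, GEM at 1.56, CD68 at 1.68 and PHOSPHO1 at 1.72. Their changes with panobinostat ran from 3.94 to 5.78 and those with OTX015 from 0.75 to 1.32. Each was therefore nearer to MT2A than any other metallothionein, of which MT1X was the nearest at 4.27. For MT1X the nearest were LINC00520 at 0.72, NRSN1 at 1, IQUB at 1.04, LINC00624 at 1.06 and ENPP5 at 1.1, and MT1F lay at 2.13. For MT3 they were SOCS3, FMO1, GCSIR, STX2 and GCNA, at 0.23 to 0.29, with changes of at most 0.39 in any comparison with DMSO.

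CD68 also stands on the list of microglia and macrophage markers, of which 3 of 10 rose with panobinostat (CD68, CSF1R and TMEM119) and 1 with OTX015. Of all genes 19.4% were called higher with panobinostat and 7.97% with OTX015. The summed log2 level of the 10 was 32.51 to 33.69 with both drugs, 31.71 to 32.09 with panobinostat, 26.19 to 27.11 with OTX015 and 23.57 to 25.71 with DMSO. PTPRC, the pan-leukocyte marker, and P2RY12, AIF1, CX3CR1, ITGAM, TYROBP and CD163 averaged under background in every group. Of 10 markers of astrocytes, the brain cells known for high metallothionein levels, 4 rose and 2 fell with panobinostat. ALDOC (2.52 ± 0.17), SOX9 (1.26 ± 0.13), GLUL (0.76 ± 0.14) and GJA1, under background in every group, rose. SLC1A3 (-2.89 ± 0.16) and S100B (-0.48 ± 0.13) fell. The summed level of the 10 was 48.94 to 49.14 with both drugs, 49.06 to 49.53 with panobinostat, 46.58 to 47.73 with OTX015 and 46.92 to 47.36 with DMSO. All RNA came from 1 cultured line, NCH644, so a marker here is read as a gene of that line and not as a count of cells of a type. A link between either marker list and the metallothionein changes was not tested. Endothelial markers had 1 of 6 higher and 1 lower with panobinostat, pericyte and fibroblast markers 1 of 6 higher, and limma called 0 of 5 lymphocyte markers, with 0 at an unadjusted p under 0.05. The called endothelial genes, KDR (2.6 against 2.06 with DMSO) and PECAM1 (1.32 against 1.97), averaged under background in every group. For all these marker lists the shares of all genes with panobinostat were 19.4% called higher and 17.9% lower.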

How the data were processed

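Total RNA of 8 samples of NCH644 cells was labelled with biotin for single-colour arrays, per the labels' protocols. The submitters' processing notes name RMA, affy 1.36.1 and R 2.15.1 for the deposited log2 values, and the array model is not given in the sources used here. RMA makes array distributions alike, so a change in total RNA per cell would not be seen. Groups and replicate numbers came from the sample titles, and 0 columns were left unassigned.

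The platform annotation named 22458 of 23786 probe sets with 1 gene symbol each. They entered 1 limma fit (limma 3.58.1, R 4.3.3) of all 8 arrays with 4 group means and no filter, with Benjamini-Hochberg adjustment over all of them in each comparison. The fit was tested on simulated data. A fold against a group under background is a lower bound computed from the background level. The genes and lists were chosen with earlier results of these data known. Named are all members, up to 4 called genes of most lists with the largest changes, and MTF1, SLC30A1, NFE2L2, NR3C1 and SLC39A10. All called flanking genes and astrocyte markers with panobinostat are named, and further genes where a limit is given. Flanking genes came from the RefSeq order of GRCh38.p14, as background for names and neighbours only. The main fit did not pair the arrays by replicate number. The correlations of replicate deviations between groups were small but all positive, from 0.047 to 0.118. A fit with the replicate number as a block is among the alternatives below. Protein sequences were not used here.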

Additional observations from a re-analysis of the deposited data

Results flagged for a closer look

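The change of MT1F with OTX015 differed with and without panobinostat by a test of the difference itself, 2.29 ± 0.44 (limma interaction, adjusted p = 0.0123), with values of 1.06 under panobinostat and -1.23 alone. The change of MT1X with OTX015 differed by 0.72 ± 0.19 (limma interaction, adjusted p = 0.0411), with values of 0.12 under panobinostat and -0.6 alone. The MT1X levels behind the 0.12 were 11.72 to 11.86, near the array maxima of 12.04 to 12.33, where signals can be compressed, so a changed effect and the limit of the measure cannot be told apart for MT1X. Adjusted p over the alternatives of each ran from 0.00521 to 0.0551 for MT1F and from 0.00287 to 0.132 for MT1X.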

How the results depend on the processing

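The rises of MT2A, MT1X and MT1F with panobinostat kept their direction and their call in all 13 alternatives run (log2 changes of 4.67 to 5.1, 3.37 to 3.61 and 1.85 to 2.63), as did those with both drugs (5.29 to 5.5, 3.44 to 3.68 and 2.87 to 3.72). Over all members and comparisons, 746 of 818 recomputed changes kept direction and side of the threshold, 32 lost a call and 10 gained one. The other 30 took the other sign, 0 of them called before or after. With arrays centred on their medians these were MT1E (-0.02) and MT3 (0) for both drugs against OTX015 and MT1B (0.03) and MT3 (0.11) for OTX015 against panobinostat. After quantile normalization they were MT1E (-0.03) and MT3 (-0.01) for both drugs against OTX015, MT3 (0.11) for OTX015 against panobinostat and MT1X (-0.16) for both drugs against panobinostat. The rest came from leaving out 1 array, with ranges of log2 change over those fits as follows. For MT3 they were -0.05 to 0.52 for panobinostat against DMSO, -0.06 to 0.27 for both drugs against OTX015, -0.2 to 0.37 for both drugs against panobinostat, -0.31 to 0.27 for OTX015 against panobinostat and -0.42 to 0.16 for the interaction. For MT1E the range was -0.19 to 0.38 for both drugs against OTX015. Among the genes under background, MT1G ranged from -0.52 to 0.02 with OTX015, -0.37 to 0.17 with panobinostat and -0.13 to 0.41 with both drugs, each against DMSO. MT1H ranged from -0.1 to 0.11 with OTX015 and -0.61 to 0.1 with panobinostat against DMSO, -0.51 to 0.2 for both drugs against panobinostat, -0.1 to 0.61 for OTX015 against panobinostat and -0.51 to 0.2 for the interaction. MT1B ranged from -0.01 to 0.27 for both drugs against DMSO and -0.22 to 0.02 for OTX015 against panobinostat, and MT1M from -0.01 to 0.25 for the interaction. The number of members called shifted when 1 array was left out, for OTX015 against DMSO, for both drugs against panobinostat and for the interaction. Such fits also have less power. A lone array left in a group is then assumed to vary like the others. At an adjusted p under 0.01 the counts were 1 for OTX015 against DMSO and 0 for the interaction (4 of 9 at an unadjusted p under 0.05), and the interaction count was 1 with arrays centred on their medians or after quantile normalization, where MT1X lost its call (adjusted p = 0.0577 and 0.129). With an intensity trend and robust moderation the count for both drugs against panobinostat was 2 (MT1F, adjusted p = 0.0451, and MT2A, adjusted p = 0.041). With the replicate number as a block it was 1 (MT1F, adjusted p = 0.0302), and the block changed no other call of a member. The fall of MT1X with OTX015 missed the threshold when only the groups compared were fitted (adjusted p = 0.0563). The cause of these shifts was not tested. Changes under the background level of 3.03 are not measured well by the array: MT1H, for example, was called lower with panobinostat without panobinostat replicate 1 (-0.61, adjusted p = 0.0331).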
